A study of Caenorhabditis elegans with 12 samples.

Results

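The crh-1 gene of Caenorhabditis elegans encodes the worm's CREB transcription factor and also gives rise to circular RNAs. The transcriptomes of worms carrying 2 alleles of this gene were set against each other. The n3315 allele (strain MT9973) is described as a CREB null. The syb385 allele (strain VDL786) is an intronic CRISPR deletion that removes the circular RNAs and leaves CREB protein in place. The mutants are reported to have opposite lifespan effects, and the question was which gene classes separate them. The comparison used 8 of the 12 libraries of the series, 4 labelled crh-1(n3315) and 4 of crh-1(syb385), each from whole worms at day 1 of adulthood grown at the same temperature on the same bacteria. The 4 wild-type (N2) libraries took no part in it and are given only for orientation. Each mutant is a single strain, so strain and allele cannot be told apart. Of the 46748 genes in the count table, 13735 passed a low-count filter in the mutant libraries and were tested. Total counts were 20296003 to 25369267 per library labelled crh-1(n3315), 18172086 to 21404887 in crh-1(syb385) and 16348586 to 22174508 in wild type.

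CREB is a basic leucine zipper factor that, once phosphorylated, recruits the coactivator CBP to promoters. In C. elegans it is known for roles in long-term memory and, through the coactivator CRTC, in lifespan. CircRNAs form when a downstream splice donor joins an upstream acceptor. They lack a poly(A) tail, so poly(A)-selected libraries do not measure them, and the libraries report only linear RNAs.

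The count of crh-1 did not check the labels. It stood at 1130, 951, 1102 and 1034 counts in libraries labelled crh-1(n3315). In crh-1(syb385) it had 849, 789, 871 and 958 counts, and in wild type 775, 1017, 745 and 1050. In CPM (the usual per-library unit, counts scaled to sequencing depth), the level was 47.6 ± 2.20 CPM in libraries labelled crh-1(n3315), 43.6 ± 1.48 in crh-1(syb385) and 41.9 ± 3.90 in wild type (SD, n = 4 each). The log2 fold change between the mutants was 0.13 ± 0.077 (SE; edgeR adjusted p = 0.213). The n3315 libraries are therefore named by their label throughout (n3315-labelled for short), and the syb385 deletion, lying in an intron, leaves no mark on this count either.

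The mutants separated clearly. The first principal component carried 43.7% of the variance and placed the libraries labelled crh-1(n3315) between -39.6 and -27.9, against 28.3 to 39.0 for crh-1(syb385). Replicate 1 of crh-1(syb385) stood apart on the second component (44.6, with the 7 other libraries between -20.1 and 5.06). A gene was called differentially expressed (DEG) where edgeR gave an adjusted p below 0.05 and the fold change reached 2. By this rule 270 genes were higher in libraries labelled crh-1(n3315) (1.97% of those tested) and 467 were lower (3.40%), together 737 DEGs (5.37%). Most changes were smaller than 2-fold, since 5181 genes passed the adjusted p alone (2538 higher and 2643 lower). In 35.2% of all tested genes the libraries did not overlap between the mutants (all above in 18.1%, all below in 17.1%). Among DEGs this held for 238 of the 270 that rose and 386 of the 467 that fell. The median log2 fold change was -0.05 over all tested genes. Only 58 genes rose and 39 fell by 4-fold or more.

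**Figure D1:**
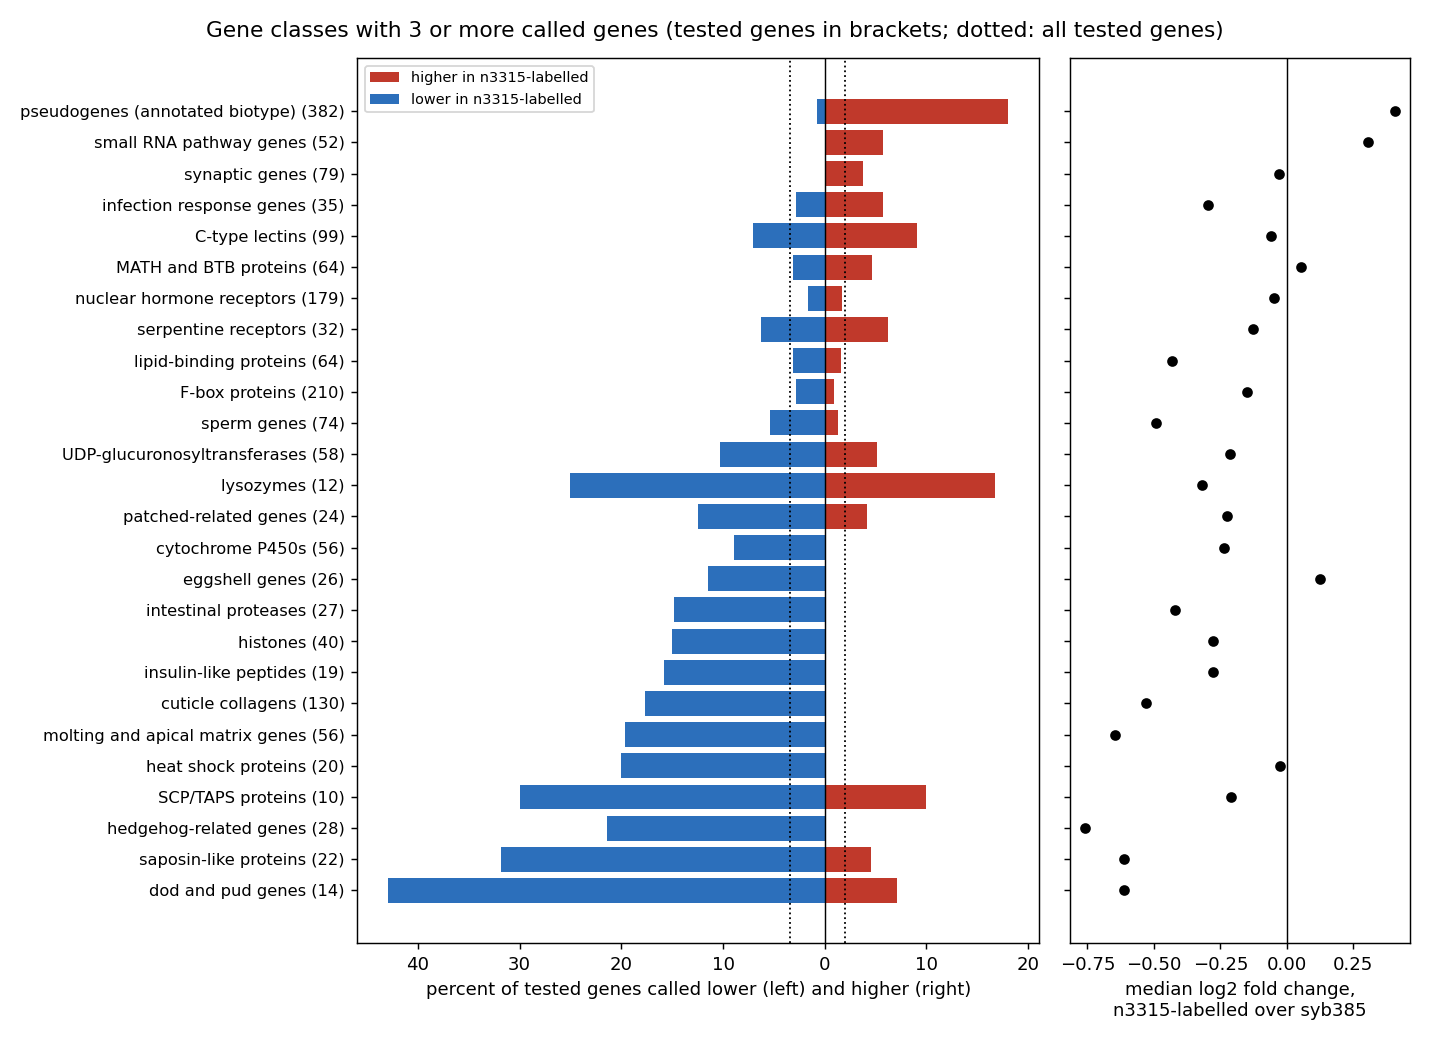
Gene classes with at least 3 DEGs. Left, percent of tested members lower (blue, to the left) and higher (red, to the right) in libraries labelled crh-1(n3315) than in crh-1(syb385), with dotted lines at the shares of all tested genes (3.40% and 1.97%). Right, the median log2 fold change of each class. The intestinal, cuticle and stress classes extend to the left, and pseudogenes extend to the right with 69 of 382 higher and 3 lower.

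Several abundant digestive and antibacterial genes of the intestine fell in libraries labelled crh-1(n3315). The aspartic (asp) and cathepsin-like cysteine (cpr) proteases degrade bacterial food. Of 27 tested proteases, 4 fell and none rose, beside 3.40% and 1.97% of all tested genes. The adjusted p was passed by 18, each lower, beside 2643 of all 13735 tested genes on the lower side. The list's median log2 fold change was -0.42. The aspartic protease asp-1 (V: 19049123-19050825) had 759.8, 826, 612 and 684 CPM in libraries labelled crh-1(n3315), against 2095, 2444, 1820 and 2292 CPM in crh-1(syb385). The groups were far apart, with a log2 fold change of -1.59 ± 0.097 (SE; edgeR adjusted p = 6.3e-09), and wild type (1704, 2466, 2037 and 1899 CPM) overlapped crh-1(syb385). The cathepsin B-like protease cpr-5 had 128, 115, 128 and 152 CPM in libraries labelled crh-1(n3315), against 355, 398, 354 and 428 in crh-1(syb385). Wild-type libraries were spread from 106 to 322 CPM for cpr-5. Its relative cpr-9 averaged 479 ± 32.5 CPM in libraries labelled crh-1(n3315) and 1083 ± 78.5 in crh-1(syb385) (SD, n = 4 each), and asp-12 averaged 12.7 ± 2.14 CPM in n3315-labelled libraries and 45.4 ± 13.2 in crh-1(syb385). The protease asp-6 missed the 2-fold limit at a log2 fold change of -0.95, whereas cpr-6 had a log2 fold change of 0.01 (767 ± 71.5 CPM in libraries labelled crh-1(n3315), 762 ± 33.7 in crh-1(syb385)). Summed over the list, proteases made up 7218 to 7764 CPM in libraries labelled crh-1(n3315), against 10990 to 12780 in crh-1(syb385) and 9568 to 13200 in wild type. In whole worms, fewer cells of a type and less RNA per cell cannot be told apart. The intestinal markers vit-2, vit-6, elt-2, ges-1 and asp-1 together gave 38870 to 51200 CPM in libraries labelled crh-1(n3315) and 34030 to 41940 in crh-1(syb385), a sum that the vitellogenins dominate. Of these markers ges-1 (20.6 to 26.2 CPM in n3315-labelled libraries, 28.98 to 35.25 in crh-1(syb385)), elt-2 (12.84 to 17.01 CPM in n3315-labelled libraries, 19.9 to 22.2 in crh-1(syb385)) and asp-1 were lower with no overlap, while vit-2 was higher with none. The part of intestinal cell number in the protease levels was not tested.

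Lysozymes, which cleave bacterial cell walls, split. Of 12 tested, 3 fell (lys-7, lys-4 and ilys-5) and 2 rose (ilys-3 and ilys-2, the last with overlapping libraries). lys-7 had 25.7, 31.1, 31.6 and 30.6 CPM in libraries labelled crh-1(n3315), against 131, 141, 137 and 133.5 CPM in crh-1(syb385) (log2 fold change -2.19 ± 0.079; edgeR adjusted p = 1.2e-11). It was higher still in wild type, at 202, 263, 272 and 278 CPM. ilys-5 averaged 139 ± 22.8 CPM in libraries labelled crh-1(n3315) and 492 ± 50.3 in crh-1(syb385), while lys-4 averaged 151 CPM in n3315-labelled libraries and 328 in crh-1(syb385). ilys-3 moved the other way at a low level. It had 2.48, 2.54, 3.45 and 7.12 CPM in libraries labelled crh-1(n3315), against 0, 0.441, 0.463 and 0.186 CPM in crh-1(syb385). Both mutants lay below wild type for ilys-3 (9.04 to 55.1 CPM), so the rise set a low mutant against a lower one.

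Saposin-like proteins permeabilize bacterial membranes, and 7 of 22 fell (spp-2, spp-3, spp-4, spp-5, spp-13, spp-25 and spp-28). spp-12 rose, a call lost in a fit over all 12 libraries (edgeR adjusted p = 0.052). Falls made up 31.8% of the list and rises 4.55%, beside 3.40% and 1.97% of all tested genes. spp-4 had 3.37, 3.52, 4.29 and 3.20 CPM in libraries labelled crh-1(n3315), against 27.3, 23.5, 28.3 and 28.8 CPM in crh-1(syb385) (log2 fold change -2.91 ± 0.14; edgeR adjusted p = 2.9e-10). The more abundant spp-5, whose product kills ingested bacteria, averaged 129.2 CPM in libraries labelled crh-1(n3315) and 264 CPM in crh-1(syb385). The genes spp-2, spp-3, spp-4 and spp-5 are neighbours within 5502 nt on chromosome X. These are short genes (median exonic length 446 nt for the list), and after the trend of fold change on length described further on was removed, the count was 2. Without replicate 1 of the libraries labelled crh-1(n3315) the count was 4.

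C-type lectins, secreted sugar-binding proteins that many infections induce, gave 9 rises and 7 falls among 99 tested, with a median of -0.06. Those are 9.09% and 7.07%, beside 1.97% and 3.40% of all tested genes. The largest rise was clec-84 (IV: 2842474-2845595), with 17.9, 18.8, 15.7 and 15.4 CPM in libraries labelled crh-1(n3315), against 1.81, 0.771, 1.34 and 1.49 CPM in crh-1(syb385). Wild type, at 0.780 to 2.63 CPM, lay with crh-1(syb385). clec-190 averaged 38.2 CPM in n3315-labelled libraries and 10.6 in crh-1(syb385), and clec-218 averaged 34.4 CPM in n3315-labelled libraries and 13.7 in crh-1(syb385). The most abundant lectin to fall was clec-41, at 41.1 CPM in n3315-labelled libraries and 87.2 CPM in crh-1(syb385). clec-207 averaged 0.237 CPM in libraries labelled crh-1(n3315) and 0.841 in crh-1(syb385), and its call at an edgeR adjusted p of 0.038 was lost on leaving out any of 6 libraries (replicates 2, 3 and 4 of crh-1(n3315), adjusted p 0.072 to 0.097, and replicates 1, 2 and 3 of crh-1(syb385), 0.051 to 0.14). Infection response genes gave 2 rises (pals-32 and irg-1) and 1 fall (irg-5) among 35. That is 5.71% higher and 2.86% lower, so falls were no more frequent than over all tested genes (3.40%). pals-32 averaged 1.45 CPM in libraries labelled crh-1(n3315), 0.197 in crh-1(syb385) and 5.34 in wild type. Among SCP/TAPS proteins, secreted proteins with a cysteine-rich domain, scl-2, scl-3 and scl-6 fell and scl-24 rose (10 tested, 30.0% lower and 10.0% higher). No antimicrobial peptide of 17 and no chitinase-like gene of 10 was a DEG.

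Genes of the cuticle and of molting gave many falls. The cuticle is built of collagens secreted by the hypodermis, and a subset (dpy-2, dpy-3, dpy-7 and dpy-10 among them) forms the circumferential furrows. Of 130 tested cuticle collagens 23 fell (17.7%, beside 3.40% of all tested genes) and none rose. Of the 130 fold changes 107 were negative, with a median of -0.53. dpy-7 (X: 7536460-7537792) had 7.05, 8.69, 11.4 and 11.2 CPM in libraries labelled crh-1(n3315), against 35.3, 37.2, 30.9 and 33.3 CPM in crh-1(syb385) and 66.3, 54.9, 52.8 and 59.2 CPM in wild type. The 3 genotypes did not overlap. dpy-2, dpy-3 and dpy-10 were ordered alike. dpy-2 averaged 11.7 CPM in libraries labelled crh-1(n3315), 32.1 in crh-1(syb385) and 61.5 in wild type. dpy-3 averaged 8.56 CPM in n3315-labelled libraries, 20.2 in crh-1(syb385) and 39.9 in wild type. dpy-10 averaged 25.9 CPM in n3315-labelled libraries, 55.9 in crh-1(syb385) and 104.6 in wild type. The furrow collagens dpy-8 and dpy-9 lay near or below 2 CPM in every genotype and were no DEGs. Collagens required for body shape were more abundant. sqt-3 averaged 112.1 CPM in n3315-labelled libraries, 232 in crh-1(syb385) and 452 in wild type. dpy-17 averaged 107.5 CPM in n3315-labelled libraries, 257 in crh-1(syb385) and 505 in wild type, and dpy-14 averaged 90.0 CPM in n3315-labelled libraries, 183 in crh-1(syb385) and 359 in wild type. The adult collagen col-19 overlapped between the mutants (1393 ± 191 CPM in libraries labelled crh-1(n3315), 1474 ± 81.4 in crh-1(syb385), 645 ± 279 in wild type). The libraries overlapped for 12 of the 23 collagens that fell, dpy-5 and col-62 among them. All libraries were below in 23 of the 130 (17.7%, beside 17.1% of all tested genes). Wild type was below both mutants for 88 of the 130. The collagen count depended on the setting. It was 40 without replicate 1 of the libraries labelled crh-1(n3315), 14 without their replicate 3, 15 without their replicate 4 or with the length trend removed, and 9 when all 12 libraries shared the estimate of spread. The fall of the adult collagen col-120 (2.59 CPM in n3315-labelled libraries, 7.08 in crh-1(syb385)) was lost in that last fit (edgeR adjusted p = 0.18).

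Among 56 molting and apical matrix genes 11 fell (19.6%, beside 3.40% of all tested genes) and none rose (median -0.65). The count was 18 without replicate 3 of the libraries labelled crh-1(n3315). The 11 held the kinases nekl-2 and nekl-3, needed to complete a molt, and the cuticlin genes cut-6, cutl-9, cutl-13 and cutl-28. They also held the lipocalins lpr-1, lpr-4, lpr-5 and lpr-6, which shape the matrix that lines narrow tubes. lpr-4, lpr-5 and lpr-6 lie side by side on chromosome X and fell by nearly the same amount (log2 fold changes -1.37, -1.32 and -1.36). lpr-1 had 0.601, 0.586, 0.796 and 0.582 CPM in libraries labelled crh-1(n3315), against 1.13, 1.93, 2.83 and 1.54 CPM in crh-1(syb385). Of 28 hedgehog-related genes 6 fell (grd-4, grd-16, grl-7, hog-1, wrt-2 and wrt-6), or 21.4% beside 3.40% of all tested genes. The count was 3 without replicate 4 of the libraries labelled crh-1(n3315) or with the length trend removed. It was 2 in the fit over 12 libraries, where grd-4 was lost (edgeR adjusted p = 0.12). Of 24 patched-related genes ptr-1, ptr-4 and ptr-25 fell (12.5%, beside 3.40% of all tested genes). As a whole this list did not fall. The adjusted p was passed by 7 on the higher side and 6 on the lower. Its summed level was 1389 to 1573 CPM in n3315-labelled libraries and 1141 to 1292 in crh-1(syb385). ptr-4 had 6.25, 10.99, 12.8 and 7.95 CPM in libraries labelled crh-1(n3315), against 22.9, 25.4, 22.4 and 17.9 CPM in crh-1(syb385). ptr-22 rose instead, with 20.5, 15.7, 21.7 and 13.1 CPM in n3315-labelled libraries, against 2.89, 6.88, 3.71 and 4.47 CPM in crh-1(syb385). Marker genes of the larval molt (mlt-10, nas-37, noah-1, lin-42 and fbn-1) summed to 182 to 288 CPM in libraries labelled crh-1(n3315), 296 to 353 in crh-1(syb385) and 314 to 751 in wild type. That sum did not overlap between the mutants, but its members differed in direction: noah-1 averaged 114 CPM in n3315-labelled libraries and 189.5 in crh-1(syb385), and mlt-10 averaged 15.7 CPM in n3315-labelled libraries and 11.9 in crh-1(syb385). The part of developmental timing in these differences was not tested.

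Some stress and longevity genes fell, beside 3.40% of all tested genes. Of 7 metallothionein and cadmium response genes mtl-1 was the single DEG (14.3%). That list had 4 positive fold changes and a median of 0.18. Of 7 superoxide dismutases and catalases sod-3 was the single DEG (14.3%), with all 7 fold changes negative. mtl-1, a metallothionein, had 0.320, 0, 0.354 and 0.0969 CPM in libraries labelled crh-1(n3315), against 2.65, 1.27, 1.03 and 1.91 CPM in crh-1(syb385) (log2 fold change -3.07 ± 0.61; edgeR adjusted p = 0.00072). Both were far below wild type (21.7 to 100.2 CPM). sod-3, the mitochondrial manganese superoxide dismutase and, like mtl-1, a known target of the FOXO factor DAF-16, had 1.60, 1.76, 1.37 and 1.502 CPM in libraries labelled crh-1(n3315), against 4.27, 3.42, 4.22 and 4.66 CPM in crh-1(syb385). sod-3 shares 65 exonic nt with a neighbouring gene, so its count is uncertain. Among 20 heat shock genes 4 fell (20.0%), namely hsp-70, hsp-12.1, hsp-16.2 and hsp-16.41. hsp-70 had 0.921, 0.439, 0.531 and 1.07 CPM in libraries labelled crh-1(n3315), against 1.72, 3.75, 3.29 and 2.38 CPM in crh-1(syb385). All 4 lay below 8 CPM in the mutants, whereas the summed list overlapped between the mutants (9440 to 9934 CPM in n3315-labelled libraries, 8913 to 9707 in crh-1(syb385)).

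The largest falls belonged to the 6 pud genes, whose products rise when DAF-2 insulin signalling is lowered. They sit within 8893 nt on chromosome V (2322038-2330930), and all 6 were near 0 in libraries labelled crh-1(n3315). pud-3 had 0, 0.195, 0.0442 and 0.339 CPM there, against 5.54, 6.39, 7.10 and 7.46 CPM in crh-1(syb385). No read of pud-1.2 was counted in the 4 libraries labelled crh-1(n3315), which puts it at least 28.3-fold below crh-1(syb385) when 3 counts over the group are taken as the floor. The adjacent copies share near-identical sequences, and pud-3 and pud-4 overlap by 135 nt, so the reads of single copies are uncertain. Of the dod genes, named as downstream of DAF-16, dod-22 rose at about 1 CPM, a call lost without replicate 3 of the libraries labelled crh-1(n3315) (edgeR adjusted p = 0.11).

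None of 16 insulin/IGF-1 pathway genes reached 2-fold, and 9 passed the adjusted p, each higher in libraries labelled crh-1(n3315) with no overlap of libraries. Over all 13735 tested genes 2538 passed on the higher side, and 18.1% had all libraries above. The receptor daf-2 averaged 186 ± 17.2 CPM in n3315-labelled libraries and 118 ± 7.18 in crh-1(syb385), and daf-16 itself 161 ± 22.8 CPM in n3315-labelled libraries and 114 ± 7.74 in crh-1(syb385) (SD, n = 4 each). The list's median of 0.36 was 0.18 once the length trend was removed. Of 19 insulin-like peptides 3 fell (ins-2, ins-24 and ins-31), or 15.8% beside 3.40% of all tested genes. ins-31 had 0.521, 0.146, 0.531 and 0.485 CPM in libraries labelled crh-1(n3315), against 1.52, 1.82, 1.24 and 1.86 CPM in crh-1(syb385).

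Of 31 CREB cofactors, kinases and cAMP enzymes, none was a DEG. The adjusted p was passed by 8, beside 5181 of all 13735 tested genes, so passing was no more frequent in this list. The list's median was 0.12, and -0.04 with the length trend removed. The coactivator crtc-1 was at 10.7 CPM in both mutants and 17.7 in wild type. The CBP gene cbp-1 averaged 312 ± 37.01 CPM in libraries labelled crh-1(n3315) and 223 ± 6.13 in crh-1(syb385) (edgeR adjusted p = 0.00015). The AMP kinase subunit aak-2, through which CRTC-1 is regulated, had 58.1 ± 5.26 CPM in n3315-labelled libraries and 58.3 ± 5.72 in crh-1(syb385).

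Among detoxification enzymes, set beside 3.40% lower and 1.97% higher of all tested genes, P450s gave 8.93% lower, UDP-glucuronosyltransferases 10.3% lower and 5.17% higher, and glutathione S-transferases 2.63% lower. Of 56 cytochrome P450s 5 fell and none rose. cyp-14A5 had 3.92, 4.74, 6.06 and 6.11 CPM in libraries labelled crh-1(n3315), against 19.2, 13.9, 16.01 and 18.2 CPM in crh-1(syb385). UDP-glucuronosyltransferases, which attach sugars to lipophilic compounds, gave 6 falls (ugt-8, ugt-12, ugt-18, ugt-26, ugt-32 and ugt-36) and 3 rises (ugt-14, ugt-15 and ugt-37) among 58. ugt-15 had 7.09, 5.18, 3.36 and 8.48 CPM in libraries labelled crh-1(n3315), against 2.21, 2.20, 1.54 and 1.77 CPM in crh-1(syb385). ugt-12, the most abundant of the falls, averaged 30.8 CPM in n3315-labelled libraries and 66.0 in crh-1(syb385). Among 43 ABC transporters the P-glycoprotein pgp-5 fell, with 11.7, 13.8, 10.3 and 11.1 CPM in n3315-labelled libraries, against 21.1, 29.3, 30.2 and 28.9 CPM in crh-1(syb385). Its relative pgp-12 rose just past 2-fold (8.07 CPM in n3315-labelled libraries, 3.75 in crh-1(syb385)), which was lost without replicate 4 of the libraries labelled crh-1(n3315) (log2 fold change 0.996). Of 38 glutathione S-transferases, gst-3 fell. The short-chain dehydrogenases dhs-8 and dhs-14 fell at the 2-fold limit, and dhs-14 (8.63 CPM in n3315-labelled libraries, 17.4 in crh-1(syb385)) slipped under it without replicate 2, 3 or 4 of crh-1(n3315) or replicate 4 of crh-1(syb385) (log2 fold changes -0.998 to -0.911).

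Lipid genes held the most abundant rises. far-3, a secreted fatty acid and retinol binding protein, had 358, 305, 313 and 437 CPM in libraries labelled crh-1(n3315), against 94.0, 91.4, 60.3 and 71.6 CPM in crh-1(syb385) and 26.8, 43.2, 86.2 and 45.5 CPM in wild type. The mutants did not overlap (log2 fold change 2.16 ± 0.13; edgeR adjusted p = 6.3e-09). Its neighbour far-5, with which it shares 19 exonic nt, fell to 2.42 CPM, against 5.60 in crh-1(syb385), a call lost with the length trend removed (log2 fold change -0.96). fat-7, a stearoyl-CoA desaturase that makes oleic acid, had 264, 244, 279 and 306 CPM in libraries labelled crh-1(n3315), against 146, 113, 154 and 123.2 CPM in crh-1(syb385). A log2 fold change of 1.03 put it on the 2-fold limit, and the value was 0.97 without replicate 4 of crh-1(n3315), 0.95 without replicate 2 of crh-1(syb385) and 0.99 without replicate 4 of crh-1(syb385). Of 18 desaturases and elongases 10 passed the adjusted p on the higher side, among them fat-2 and fat-5, and 2 on the lower side. Over all 13735 tested genes these counts were 2538 and 2643. fat-2 averaged 601 ± 20.2 CPM in n3315-labelled libraries and 375 ± 23.8 in crh-1(syb385), and fat-5 averaged 115 ± 12.4 CPM in n3315-labelled libraries and 80.7 ± 6.70 in crh-1(syb385). acdh-2, an acyl-CoA dehydrogenase, was the single DEG of 66 fatty acid oxidation genes, with 65.3, 43.9, 55.5 and 66.4 CPM in libraries labelled crh-1(n3315), against 118, 125.8, 176 and 149 CPM in crh-1(syb385). It shares 45 nt with ins-13. No vitellogenin of 6 and no lysosomal lipase of 6 was a DEG. The abundant dct-16, a gene under DAF-16 control, fell to 188 CPM, against 404 CPM in crh-1(syb385), but had a log2 fold change of -0.94 without replicate 2 of crh-1(n3315) and an edgeR adjusted p of 0.073 in the fit over 12 libraries, and C17F4.7 fell to 312 ± 131 CPM in n3315-labelled libraries, spread from 139.9 to 459.5, against 886 ± 28.8 CPM in crh-1(syb385).

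Several of the largest rises were of genes in none of these classes. ilys-3 and clec-84, given above (log2 fold changes 3.84 and 3.63), rose more than some genes of this paragraph. Those were plep-1 (3.27), warf-1 (3.22), linc-107 (2.88) and lact-6 (2.27). F26A1.8, a protein-coding gene of chromosome III (4820798-4822226), had 51.2, 37.6, 45 and 43.5 CPM in libraries labelled crh-1(n3315). It had 0.637, 0.220, 0.772 and 0.0466 CPM in crh-1(syb385), and wild type (0.0549 to 0.551 CPM) lay with crh-1(syb385). The log2 fold change was 6.72 ± 0.27 (edgeR adjusted p = 2.8e-11). K08D10.14 (IV) had 8.85, 6.15, 4.87 and 6.64 CPM in n3315-labelled libraries, against 0, 0, 0.309 and 0.233 CPM in crh-1(syb385). F14D2.19 (II) was near 1 CPM in libraries labelled crh-1(n3315) and had 2 counts in all of crh-1(syb385), a ratio of 42.99 with a 95% counting interval of 11.6 to 360.1. warf-1, an ARF-like small GTPase, had 19.6, 18.3, 22.7 and 29.6 CPM in n3315-labelled libraries, against 3.14, 2.86, 2.06 and 1.63 CPM in crh-1(syb385), with wild type at 0.658 to 1.14 CPM, and shares 48 nt with nep-16. plep-1 had 11.1, 4.44, 4.34 and 4.99 CPM in libraries labelled crh-1(n3315), against 1.08, 0.551, 0.618 and 0.326 CPM in crh-1(syb385). F59C6.18, the noncoding linc-107 and the beta-lactamase-like lact-6 rose to 1.33, 1.42 and 1.60 CPM, against 0.0589, 0.187 and 0.327 CPM in crh-1(syb385), and lact-6 lost its call in the fit over 12 libraries (edgeR adjusted p = 0.060). The largest falls with a sequence name were D1086.3 and C16D9.5. D1086.3 had 0.441, 0.488, 0.531 and 0.242 CPM in n3315-labelled libraries, against 14.4, 10.2, 12.2 and 10.2 CPM in crh-1(syb385). C16D9.5 had 0.200, 0.195, 0.133 and 0 CPM in n3315-labelled libraries, against 6.13, 2.64, 2.78 and 3.54 CPM in crh-1(syb385). In wild type both spanned much of the range of the mutants (0.530 to 14.3 CPM for D1086.3 and 0.204 to 5.10 CPM for C16D9.5). C15A11.7 and F49D11.6 fell with wild-type means of 16.4 and 3.04 CPM above both mutants.

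Annotated pseudogenes gave many more rises than falls. The annotation names 2074 in the table, of which 382 passed the filter, and 69 of these were higher in libraries labelled crh-1(n3315), against 3 that were lower. That is 18.1% higher, set beside 1.97% of all tested genes. They made up 25.6% of all 270 rises, 61 of the 69 had all libraries above, and 14 rose by 4-fold or more. The class was looked at after its values had been seen. The share was alike at different levels. Among genes averaging 5 CPM or more over the 12 libraries, 14 of 76 pseudogenes rose and none fell, against 42 and 194 of 8984 protein-coding genes. Below 2 CPM, 37 of 191 pseudogenes rose (19.4%), against 3.66% of 2407 protein-coding genes. Of the 69, 3 overlapped another gene on exons (4.35%), against 4.97% of all tested pseudogenes. The median of 0.41 for all 382 is on the log2 scale, and 110 of them had all libraries above, against 10 with all below. Of all tested genes 18.1% had all libraries above and 17.1% all below. As an example, WBGene00020164 (II: 7082102-7084083) averaged 19.5 CPM in libraries labelled crh-1(n3315), 4.34 in crh-1(syb385) and 6.03 in wild type. Wild type lay between the mutants and nearer crh-1(syb385) for 37 of the 69, and below both for 21. Nearness was judged here in CPM, and on the log2 scale for all DEGs at the end of the results. The nearness counts of the 69 therefore cannot be set beside those. How reads that map to several places were treated is not given in the sources used here, so reads shared between a pseudogene and its parent gene cannot be placed.

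Genes of the small RNA machinery, argonautes, RNA-dependent RNA polymerases and their helpers, which silence transposons and foreign RNA, were higher as well. Of 52 tested, 48 had a positive fold change, and 33 had all libraries above, beside 18.1% of all tested genes. The adjusted p was passed by 32, none of them lower, beside 2538 of all 13735 tested genes on the higher side. Of the 52, 3 reached 2-fold (5.77%, beside 1.97% of all tested genes). sid-1, the channel that imports double-stranded RNA, had 58.6, 70.4, 64.2 and 49.2 CPM in libraries labelled crh-1(n3315), against 26.9, 27.5, 24.1 and 30.0 CPM in crh-1(syb385). rde-11, an RNAi factor, averaged 38.2 CPM in n3315-labelled libraries and 17.8 in crh-1(syb385), and rrf-2, of the RNA-dependent RNA polymerase family, averaged 6.38 CPM in n3315-labelled libraries and 2.90 in crh-1(syb385). The nuclear argonaute hrde-1 averaged 579 ± 57.9 CPM in n3315-labelled libraries and 394 ± 21.4 in crh-1(syb385), below 2-fold. csr-1 did not pass the test (455 ± 19.7 CPM in n3315-labelled libraries, 426 ± 19.9 in crh-1(syb385); edgeR adjusted p = 0.26). These are long genes, and the list's median of 0.30 was 0.18 with the length trend removed.

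Length and fold change were related across the whole transcriptome. The median log2 fold change was -0.31 in the shortest of 4 equal groups of genes by exonic length (up to 879 nt), -0.14 and -0.01 in the middle groups and 0.20 in the longest (over 1992.5 nt). Several classes of short genes had negative medians. All 80 ribosomal protein genes had a negative fold change, 70 passed the adjusted p and none reached 2-fold, and their summed level was 61760 to 71120 CPM in libraries labelled crh-1(n3315), against 78080 to 85920 in crh-1(syb385) and 73410 to 84860 in wild type. Their median of -0.36 was -0.12 with the trend removed. All 11 genes of the mitochondrial genome passed the adjusted p on the lower side (median -0.60, and -0.38 without the trend), with wild type above both mutants for each. Of 40 histone genes 6 fell (median -0.28), but the count was 1 with the trend removed, 2 in the fit over 12 libraries, 1 without replicate 1, 3 without replicate 2 or 3 of crh-1(n3315) and 3 without replicate 3 of crh-1(syb385). Under the same correction 68 pseudogenes were higher and 4 proteases lower. The part of length in each class's fold changes beyond this correction was not tested.

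**Figure D2:**
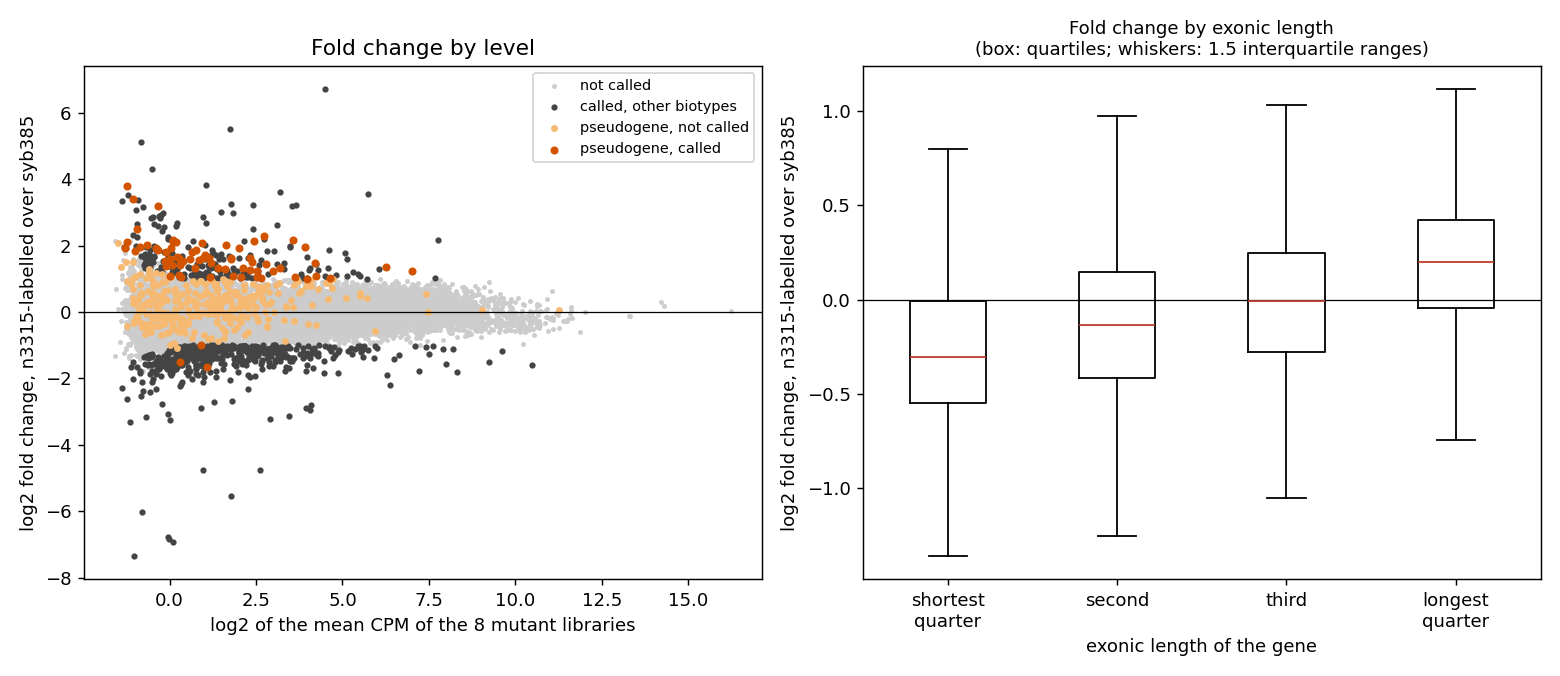
Left, log2 fold change (libraries labelled crh-1(n3315) over crh-1(syb385)) against the log2 mean CPM of the 8 mutant libraries, 1 point per tested gene, with pseudogenes in orange and other DEGs in dark grey. Of the 72 pseudogene DEGs 69 lie above 0. Right, the same fold changes in 4 equal groups by exonic length, with medians of -0.31, -0.14, -0.01 and 0.20 from shortest to longest.

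Germ-line lists differed in direction. Of 41 oocyte and maternal genes none was a DEG, but 26 passed the adjusted p on the higher side and 1 (cey-3) on the lower. Of all 13735 tested genes 2538 passed on the higher side and 2643 on the lower. The list's median of 0.26 stayed at 0.25 with the length trend removed. glp-1, the Notch receptor that keeps germ-line stem cells dividing, averaged 250.3 ± 34.3 CPM in libraries labelled crh-1(n3315) and 135 ± 7.97 in crh-1(syb385). The oocyte maturation gene oma-1 averaged 312 ± 34.6 CPM in n3315-labelled libraries and 198 ± 19.01 in crh-1(syb385), and the yolk receptor rme-2 averaged 842 ± 29.5 CPM in n3315-labelled libraries and 719.8 ± 50.7 in crh-1(syb385). Germ-line markers (glp-1, pie-1, oma-1, rme-2 and cbd-1) summed to 3499 to 3946 CPM in n3315-labelled libraries, against 2520 to 2988 CPM in crh-1(syb385) and 1229 to 2288 CPM in wild type. Of 26 eggshell genes 3 fell (cpg-9, cpg-20 and cpg-24), or 11.5% beside 3.40% of all tested genes. The adjusted p was passed by 11 on the higher side and 5 on the lower. cpg-20, a chondroitin proteoglycan family gene, had 2.04, 2.10, 2.65 and 1.89 CPM in n3315-labelled libraries, against 5.79, 7.38, 6.85 and 5.69 CPM in crh-1(syb385). Of 74 sperm genes spe-11 rose (1.35%) and msd-4, msp-45, msp-113 and msp-142 fell (5.41%), all at a few CPM. Those shares stand beside 1.97% and 3.40% of all tested genes. The libraries overlapped for each of the 4 falls. The list had a median of -0.49 (18 positive and 56 negative), or -0.28 with the length trend removed. All libraries were below in 1 of the 74 and above in 8, beside 17.1% and 18.1% of all tested genes. The adjusted p was passed by 7 on the higher side and 5 on the lower. Of 53 zygotic embryo genes 7 passed the adjusted p on the lower side and none on the higher. Over all 13735 tested genes these counts were 2643 and 2538. All libraries were below in 4 of the 53, beside 17.1% of all tested genes, so falls were no more frequent in this list. The 5 sperm markers summed to 3.25 to 11.7 CPM in n3315-labelled libraries and 4.22 to 13.3 CPM in crh-1(syb385).

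**Figure D3:**
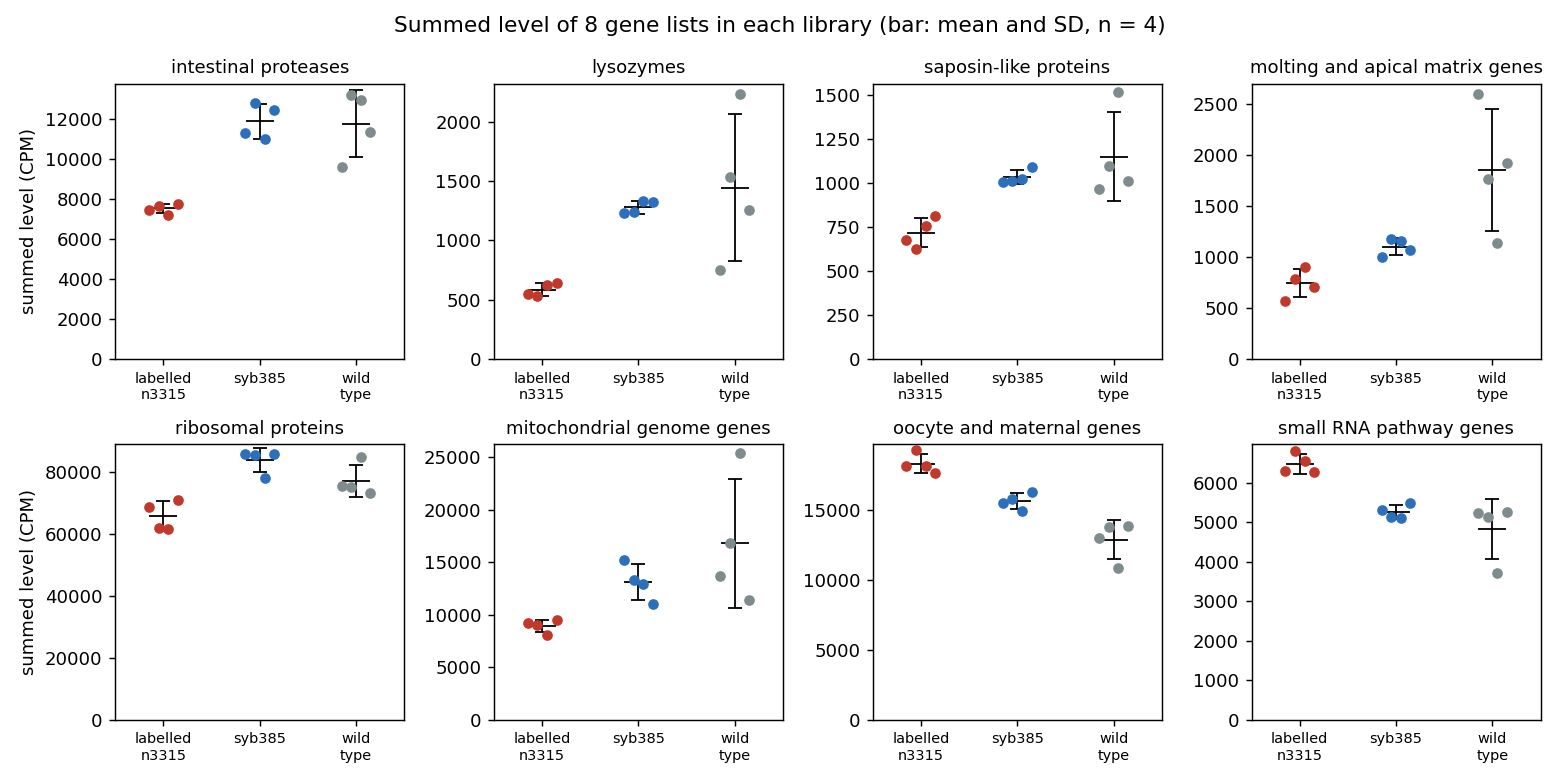
Summed level of 8 gene lists (CPM, y axes from 0) in each library, with libraries labelled crh-1(n3315) at left, crh-1(syb385) in the middle and wild type at right. Points are libraries and bars the mean and SD (n = 4). The first 6 lists are lower in every library labelled crh-1(n3315) than in every library of crh-1(syb385), and the last 2 are higher.

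Neuronal and muscle genes gave few DEGs. Of 79 synaptic genes 3 rose and none fell (3.80% higher, beside 1.97% of all tested genes), with a list median of -0.03. The 3 were unc-31, which primes dense-core vesicles for release, cla-1, a long active-zone protein, and the glutamate receptor glr-4. The libraries overlapped for 1 of them. unc-31 had 5.77, 5.62, 5.09 and 3.44 CPM in libraries labelled crh-1(n3315), against 3.33, 1.54, 2.42 and 1.63 CPM in crh-1(syb385), and lost its call with the length trend removed (log2 fold change 0.87). capa-1 was the single DEG of 84 neuropeptide genes, with 1.08, 0.830, 0.929 and 0.582 CPM in n3315-labelled libraries, against 3.73, 2.699, 2.68 and 2.98 CPM in crh-1(syb385). No muscle gene of 48 was a DEG, with 21 fold changes positive, 27 negative and a median of -0.03. The list summed to 14560 to 16750 CPM in n3315-labelled libraries and 13170 to 16280 in crh-1(syb385). The markers myo-3, unc-54, unc-15 and lev-11 summed to 4263 to 5374 CPM in libraries labelled crh-1(n3315) and 2942 to 4082 in crh-1(syb385). That sum did not overlap between the mutants, but its members differed. Both unc-54 and unc-15 were higher in n3315-labelled libraries with no overlap, whereas lev-11 and myo-3 overlapped between the mutants. The most abundant marker, unc-54, averaged 2598 ± 323 CPM in n3315-labelled libraries and 1684 ± 267 in crh-1(syb385). Large regulatory families are set beside the 5.37% of all tested genes that were DEGs. Of 179 nuclear hormone receptors 3 rose and 3 fell (nhr-127 to 0.725 CPM, against 3.17 in crh-1(syb385)), 2 F-box genes rose and 6 fell of 210 (fbxc-43 and fbxb-66 leading), and 3 MATH or BTB genes rose and 2 fell of 64. math-3 had 13.2, 10.7, 10.3 and 9.45 CPM in n3315-labelled libraries, against 3.92, 2.97, 3.35 and 1.91 CPM in crh-1(syb385), and shares 41 nt with a neighbour. Of 1311 serpentine receptors 32 passed the filter, and srj-14 and srsx-36 rose while sra-14 and srsx-34 fell. srsx-36 was lost in the fit over 12 libraries (edgeR adjusted p = 0.091).

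DEGs were unevenly placed. Chromosomes V (2.69% higher, 5.30% lower) and X (1.59% and 4.92%) held the highest shares of falls, and chromosome III, which carries crh-1 (11657738-11693837), the lowest of the 6 (1.12% and 1.72%). Within 1 Mb of crh-1 3.05% of 262 genes were DEGs, against 3.24% from 1 to 3 Mb and 2.64% beyond. Of the 737 DEGs 139 (18.9%) had a DEG of the same direction as a neighbour among tested genes, and 12 runs of at least 3 held 49 genes. Besides the pud, spp and lpr runs, K09F6.6, K09F6.9, K09F6.10, K09F6.11 and 2 neighbours rose on chromosome II (2262197-2288827), K09F6.9 at 5.02 CPM in libraries labelled crh-1(n3315) and 0.610 in crh-1(syb385). spe-11 rose with 4 neighbours on chromosome I (5330576-5342049), of which F48C1.9 averaged 14.9 CPM in n3315-labelled libraries and 2.42 in crh-1(syb385). K08D10.14 rose with 4 neighbours on chromosome IV (4123525-4161789).

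For genes that fell in libraries labelled crh-1(n3315), the wild-type mean was above both mutants in 307 of 467 (65.7%, against 42.7% of all tested genes). It was below both in 29 (6.21%, against 32.8%). It lay within the gap and nearer crh-1(syb385) in 89 (19.1%, against 15.3%), and nearer n3315-labelled libraries in 42 (8.99%, against 9.15%). For genes that rose it was below both mutants in 88 of 270 (32.6%, against 32.8% of all genes) and above both in 19 (7.04%, against 42.7%). It lay within the gap and nearer crh-1(syb385) in 98 (36.3%, against 15.3%), and nearer n3315-labelled libraries in 65 (24.1%, against 9.15%). The median absolute log2 fold change of all tested genes was 0.31, whereas the calling rule gives each DEG a gap of at least 2-fold. Shares within the gap are therefore not directly comparable between all genes and DEGs. The wild-type libraries were widely spread for some of these genes, such as ilys-5 (48.3 to 698 CPM) and dct-16 (72.0 to 562 CPM).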

How the data were processed

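The authors prepared poly(A)-selected libraries, read them at 150 nt from both ends, mapped them with STAR v2.7.5a (genome WBcel235) and summed exonic reads per gene in featureCounts v1.5.0. They deposited raw counts per gene, whole numbers without normalization or pooling, with each gene's exonic length. Strand setting, multi-mapping reads and annotation release are not given in the sources used here. DESeq2 v1.26.0 was the authors' test. The study's methods describe FUdR plates unless indicated otherwise, while the labels name none, so its use is unclear. Replicates are described as independent.

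The 8 mutant libraries were fitted in R v4.3.3 with edgeR v4.0.16 (quasi-likelihood, TMM, prior count 0.125, genotype only) after filterByExpr (minimum count 10, minimum total 15). P-values were Benjamini-Hochberg adjusted over 13735 genes, 495 without a symbol, and a DEG had adjusted p under 0.05 and at least 2-fold change. CPM are TMM-scaled, and the mutant scaling is that of the fit. Principal components used log2 CPM with a prior count of 2. Alternatives included DESeq2 v1.42.0, and the edgeR, DESeq2 and block fits were each tested on simulated counts with known fold changes. Floors (3 counts over a group) and counting intervals cover counting error only.

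Symbols came from a name table that matched 43693 of 46748 gene IDs. The comparison, the 52 gene lists (matched by symbol, mitochondrial genes by chromosome) and the rule were chosen with earlier results of these data known; the pseudogene count was added after its values were seen, and the serpentine receptor list was narrowed after its members were seen. Genes named by rule were crh-1; the 8 largest rises and falls with gene-class symbols and 4 each with sequence names, among DEGs whose libraries did not overlap and whose higher group averaged at least 1 CPM; the 6 most abundant DEGs without overlap; and the largest rise and fall without overlap in each list. Other named genes were chosen after their values were seen. Biotypes came from an Ensembl annotation of WBcel235, which held 13638 of the genes tested, and coordinates from the deposited table. Promoter sequences were not analysed here. A gene of the insulin/IGF-1 list is not reported here by name.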

Additional observations from a re-analysis of the deposited data

Results flagged for a closer look

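In a group of 4 libraries, a value was listed where the gap between the highest or lowest library and its nearest neighbour, as a share of the whole range, passed Dixon's 95% critical value. This held for 19 of 214 groups of named genes (12 of libraries labelled crh-1(n3315), 2 of crh-1(syb385) and 5 of wild type), and chance alone gives about 1 in 20.

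In libraries labelled crh-1(n3315), replicate 1 was high for plep-1 (ratio 0.903; 11.1 CPM, the others 4.34 to 4.99) and C15A11.7 (0.901; 2.36 CPM, the others 1.07 to 1.20) and low for lys-7 (0.842; 25.7 CPM, the others 30.6 to 31.6). Replicate 2 was high for math-45 (0.937; 1.07 CPM, the others 0.872 to 0.885) and low for his-38 (0.899; 0.635 CPM, the others 1.504 to 1.602) and ins-31 (0.879; 0.146 CPM, the others 0.485 to 0.531). Replicate 3 was high for dod-22 (0.870; 1.95 CPM, the others 0.879 to 1.02) and lpr-1 (0.910; 0.796 CPM, the others 0.582 to 0.601). The pud genes pud-1.1, pud-4 and both copies of pud-2.2 (starting at 2323014 and 2329444) each had a count in a single library labelled crh-1(n3315), replicates 4, 2, 1 and 4 in that order, which gives the ratio 1.000.

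In crh-1(syb385), replicate 4 was high for linc-107 (0.863; 0.280 CPM, the others 0.147 to 0.165) and replicate 1 was low for pgp-5 (0.856; 21.1 CPM, the others 28.9 to 30.2). In wild type, replicate 3 was high for far-5 (0.863; 8.89 CPM, the others 2.99 to 3.80), C16D9.5 (0.957; 5.10 CPM, the others 0.204 to 0.413), pud-3 (0.841; 8.06 CPM, the others 0.385 to 1.61), the copy of pud-2.2 at 2323014 (0.830; 6.47 CPM, the others 0.385 to 1.42) and pud-1.2 (0.914; 2.47 CPM, the others 0.571 to 0.734).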

How the results depend on the processing

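None of the 72 genes named by rule changed direction under any alternative that tested it. The other genes named in the text were not put through this check. The counts of 270 higher and 467 lower genes stayed within 1.5 times of these values except where the threshold itself was moved (36 higher and 39 lower with the 2-fold limit inside the test, 58 and 39 at 4-fold). They were 289 and 428 with DESeq2, 282 and 419 with its size factors, 380 and 510 without the filter, 213 and 398 with a stricter filter, 291 and 343 with the length trend removed, and 216 and 347 when all 12 libraries shared the fit. That shared fit gave 9 collagens, 2 hedgehog-related genes and 2 histones lower. Removing the length trend gave 15 collagens, 3 hedgehog-related genes, 2 saposin-like genes and 1 histone. Leaving out a library gave 232 to 295 higher and 411 to 498 lower genes, 14 to 40 collagens, 9 to 18 molting genes, 3 to 8 hedgehog-related genes, 4 to 7 saposin-like genes, 1 to 6 histones and 55 to 79 pseudogenes. The cause of these shifts was not tested. Same-numbered libraries did not deviate together (correlations 0.0176, 0.0490, 0.130 and -0.0738), and with the replicate number as a block (replicate block) 267 genes were higher and 469 lower, of which 249 and 432 were shared with the fit without it; the crh-1 log2 fold change was then 0.13 (edgeR adjusted p = 0.257). Depth limits the genes of a few counts per library, such as F14D2.19 and the pud genes.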
